A study of Mus musculus with 16 samples.

Results

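The genes described here are 10 brakes on growth and division: the forkhead factors Foxo1, Foxo3 and Foxo4, the sestrins Sesn1, Sesn2 and Sesn3, and Ccng2, Txnip, Btg1 and Btg2. They were taken by symbol from the deposited count table, which held 38720 lines, and all 10 were found. Each also passed the filter on low counts, as did 16842 lines in all.

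FoxO proteins are transcription factors that sit in the nucleus when insulin and growth factor signalling is low, where they activate genes for cell cycle arrest, autophagy and antioxidant defence. AKT phosphorylates them, and 14-3-3 proteins then hold them in the cytoplasm. Sestrins restrain the growth kinase complex mTORC1 through the GATOR complexes and AMPK, and SESN2 senses leucine. Txnip encodes an alpha-arrestin that binds thioredoxin and limits glucose uptake, Ccng2 an unconventional cyclin linked to arrest, and Btg1 and Btg2 antiproliferative proteins that recruit the CCR4-NOT deadenylase to mRNAs. Adipose progenitors are fat-resident precursors that can stay quiescent, divide or become adipocytes.

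RNA was sequenced from adipose progenitors of mice 4 weeks old, in 4 groups of 4 libraries. Wild-type mice (WT, Nr4a1+/+) had the strain label C57BL/6J, and knockout mice (KO, Nr4a1-/-) the label B6;129S2-Nr4a1tm1Jmi/J, so strain background and loss of Nr4a1 cannot be told apart. Cells came from subcutaneous (SAT) or visceral (VAT) fat of each genotype, and no group was given a treatment in the labels. Column names carry the word MACS, for magnetic sorting, but no source used here names the markers sorted on. The design text calls the replicates biological, but nothing says that each is a separate animal, so a p-value reflects the spread of these libraries, which may be technical. Nr4a1 encodes an orphan nuclear receptor induced as an immediate early gene.

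Library totals ran from 34655519 to 49437944 counts for WT SAT and from 44181663 to 55551845 for KO SAT, then from 42383156 to 46293781 for WT VAT and 35761196 to 43984232 for KO VAT. Nr4a1 itself stood at 996.6 to 1211 CPM (counts relative to the TMM-scaled total of the library) in WT SAT against 194.7 to 209.2 in KO SAT, and at 1431 to 1648 in WT VAT against 297 to 326.6 in KO VAT. The summed CPM of 9 progenitor markers, led by Col1a1, was 51400 to 66370 in the SAT libraries and 22650 to 26170 in the VAT libraries. None of the 9 was at 0 in any library. Over all libraries Col1a1 had 8315 to 50930 CPM, Dcn 7425 to 11960, Cd34 639.9 to 1829 and Pdgfra 470.1 to 960.8. The sum is thus weighted to its most abundant genes and does not measure the share of progenitors. The summed CPM of 8 mesothelial markers was 6.625 to 12.21 in the SAT libraries and 806.6 to 1552 in the VAT libraries. For 8 adipocyte markers, led by Car3, WT VAT had 555.1 to 614.6 and KO VAT 916.5 to 1554. Of these, 4 of 8 were called higher in KO VAT, where 2.84% of all tested genes were. Lymphocyte markers summed to 2.136 to 27.95 CPM and 10 myeloid markers to 25.44 to 63.79 CPM. WT SAT replicate 3 and KO VAT replicate 4 had the lowest mean correlations with their own groups, 0.976 and 0.981, so results were also computed without both. WT VAT replicate 4 was close, at 0.982. The deviations of WT SAT replicate 3 and KO VAT replicate 4 from their group means correlated at r = 0.567, and the cause was not tested.

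Promoter windows from RefSeq (build GRCm38.p6) were available for 9 of the 10 genes, and 4 of the 9 held at least 1 of 6 motifs searched on both strands. The share of all windows with at least 1 of the 6 was not computed, so that count has no background here. The 3 windows printed are those with a FoxO or cAMP site, each the 250 bases upstream of the RefSeq start, 5′ to 3′ on the strand of the gene, with capitals marking the motifs. They lie at chr3:96557707-96557956 on the plus strand for Txnip, at chr10:96616751-96617000 on the plus strand for Btg1, and at chr1:134079156-134079405 on the minus strand for Btg2. None overlaps an exon of its own gene in GENCODE vM21.
Txnip: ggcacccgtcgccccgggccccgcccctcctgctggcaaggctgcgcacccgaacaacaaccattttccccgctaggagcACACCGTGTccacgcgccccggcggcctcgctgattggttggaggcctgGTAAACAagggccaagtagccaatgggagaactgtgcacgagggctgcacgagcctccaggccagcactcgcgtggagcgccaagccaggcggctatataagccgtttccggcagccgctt
Btg1: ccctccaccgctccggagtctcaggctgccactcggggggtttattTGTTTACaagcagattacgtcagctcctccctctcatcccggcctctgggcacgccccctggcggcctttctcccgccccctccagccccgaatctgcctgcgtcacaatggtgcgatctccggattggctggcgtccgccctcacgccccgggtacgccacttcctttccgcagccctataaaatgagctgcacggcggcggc
Btg2: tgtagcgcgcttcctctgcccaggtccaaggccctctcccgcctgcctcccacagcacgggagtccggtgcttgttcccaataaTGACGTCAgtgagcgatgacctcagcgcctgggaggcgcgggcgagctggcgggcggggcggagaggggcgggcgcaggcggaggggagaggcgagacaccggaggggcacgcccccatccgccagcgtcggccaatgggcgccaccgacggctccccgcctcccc
In the Txnip window the capitals mark a FoxO site (GTAAACA) 121 to 115 bases upstream of the start and a glucocorticoid receptor core (ACANNNTGT) 170 to 162 bases upstream. The Btg1 window holds the FoxO site on the other strand, 204 to 198 bases upstream, and the Btg2 window a palindromic cAMP response element (TGACGTCA), 166 to 159 bases upstream. A p53 half-site lies in 1 of 2 Sesn1 windows. The exact letters of the NR4A monomer site (AAAGGTCA) and of the palindromic E-box (CACGTG) were found in no window of these genes. Variants of these letters were not searched, so absence of a carbohydrate response element is not shown. The Txnip window holds the letters CACGAG more than once, in the run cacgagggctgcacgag, left in lower case because they were not searched. Whether this run is a carbohydrate response element was not tested. Of all 32851 windows of this length, 3.166% hold the FoxO site, 5.835% the glucocorticoid receptor core, 1.546% the cAMP element, 7.126% the p53 half-site, 1.336% the NR4A site and 6.021% the E-box. No motif in this list overlapped another in the printed windows. A match describes the letters of the window only.

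Txnip and Btg2 were the most abundant of the 10 genes in every group, and Sesn3 the least. Levels between genes are compared as CPM per kilobase of exon. Txnip led in WT SAT at 467.4 ± 93.03 per kilobase (SD, n = 4), followed by Btg2 at 339.5 ± 33.46, and these ranges overlapped. In VAT the order was turned, with Btg2 at 484 ± 22.7 and Txnip at 385.9 ± 48.23 per kilobase in WT and no overlap between them. Btg1 came next in each group, between 38.21 and 46.69 per kilobase on average.

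Foxo1, Sesn1, Ccng2, Foxo3 and Foxo4 formed a middle tier, with group means from 10.66 to 21.28 per kilobase. In WT SAT, neighbours in the order Foxo1, Sesn1, Ccng2 and Foxo3 overlapped, and Foxo3 did not overlap Foxo4. In WT VAT, Sesn1 at 18.88 ± 0.173 stood clear of Foxo1 at 16.68 ± 0.979, and Foxo1 overlapped Ccng2. Sesn2 averaged 2.897 to 4.307 per kilobase and Sesn3 0.417 to 0.783 per kilobase. Between groups, the highest and lowest mean of a gene differed by 0.17 (Foxo4) to 0.91 (Sesn3) on the log2 scale, and none of the 10 reached 1.

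**Figure D1:**
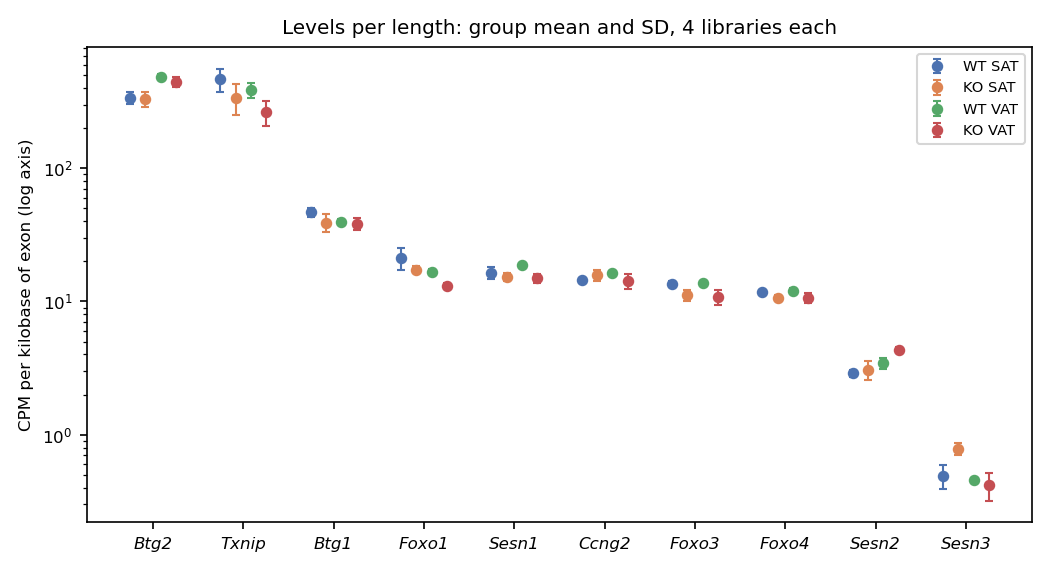
Mean level per kilobase of exon (log axis) of the 10 genes in the 4 groups, with SD over 4 libraries. Txnip and Btg2 lie highest, at 263.6 to 484 per kilobase, the FoxO genes, Sesn1 and Ccng2 share a middle tier, and Sesn3 lies below 1.

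The first comparison asked what differed between KO and WT progenitors. Averaged over the depots, the 3 FoxO genes, Sesn1 and Txnip were lower in KO: 5 of 10 genes were called lower, where 3.41% of all tested genes were, and 0 were called higher, where 4.65% were. Called means an adjusted p under 0.05 in edgeR's quasi-likelihood test, with Benjamini-Hochberg adjustment over all tested genes. Sesn2 and Sesn3 were higher at an unadjusted p under 0.05 without being called by edgeR, and DESeq2 and limma-voom called neither; without both outlying libraries Sesn3 was called (0.27, adjusted p = 0.0396). The median log2 fold change of the 10 genes was -0.155, against -0.008 over all tested genes. The average treats SAT and VAT libraries as independent, and no source used here says whether they share mice. If they do, its p-values may be too small. In these bulk libraries, fewer cells of a type and less RNA per cell cannot be told apart.

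Foxo1, the FoxO factor best known in fat cell precursors, stood at 187, 163, 234 and 154 CPM in WT SAT replicates 1 to 4 and at 151, 164, 142 and 146 CPM in KO SAT. The WT VAT libraries had 150.2, 134, 152 and 142 CPM, and the KO VAT libraries 118, 114, 117 and 105 CPM. The groups overlapped in SAT, where WT replicate 3 was the highest, and did not overlap in VAT. Averaged over depots, Foxo1 fell by 0.32 ± 0.07 on the log2 scale (SE; adjusted p = 0.0109). Neither depot alone passed the test, with -0.29 ± 0.10 in SAT (adjusted p = 0.107) and -0.35 ± 0.10 in VAT (adjusted p = 0.0678). In VAT the call was made by DESeq2 (adjusted p = 0.0242), in a fit of the 2 VAT groups alone (0.0155) and without both outlying libraries (0.0164).

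Foxo3, a FoxO factor linked to stem cell quiescence, had the smallest averaged p of the 10 genes. Its levels were 107, 102, 95.9 and 106 CPM in WT SAT against 91.2, 90.0, 84.4 and 73.0 CPM in KO SAT. The WT VAT libraries held 107, 103, 102 and 107 CPM and the KO VAT libraries 95.6, 81.9, 81.6 and 68.2 CPM. Each KO library was below each WT library of its depot. Foxo3 fell by 0.32 ± 0.06 averaged over depots (adjusted p = 0.0041) and by 0.36 ± 0.09 in VAT (adjusted p = 0.0315). In SAT it was at -0.28 ± 0.09 and not called (adjusted p = 0.0784), but it was called by DESeq2 (0.039) and without both outlying libraries (0.0186). The VAT call ended without any 1 WT VAT library, or without KO VAT replicate 2, 3 or 4 (adjusted p up to 0.0947), and in a fit of the VAT groups alone (0.0598).

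Foxo4, the remaining factor, showed the smallest difference of the family. It stood at 39.58 to 43.17 CPM in WT SAT and 35.93 to 39.12 in KO SAT, which did not overlap, whereas the ranges in VAT, 39.66 to 44.42 for WT and 33.04 to 39.95 for KO, did. Averaged over depots it fell by 0.16 ± 0.05 (adjusted p = 0.0481), a call that ended in 14 of 16 fits with 1 library left out, all but those without WT SAT replicate 3 or KO VAT replicate 3, with adjusted p up to 0.1. It also ended under scaling by total counts (0.16), with no filter on low counts (0.0974) and with the replicate block (0.0784). The averaged calls of Foxo1, Foxo3 and Sesn1 held in all 16 such fits.

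The sestrins did not move as a family. Sesn1, a p53- and FoxO-inducible sestrin, held 75.3, 74.3, 75.9 and 75.2 CPM in WT VAT, the tightest group of any of the 10 genes, and 63.8, 54.3, 63.1 and 55.9 CPM in KO VAT. The groups did not overlap, and Sesn1 fell by 0.34 ± 0.08 in KO VAT (adjusted p = 0.0211). Without replicate 1, 3 or 4 of WT VAT, or replicate 2 or 4 of KO VAT, that call ended (adjusted p up to 0.0693). In SAT the groups overlapped, at 58.51 to 75.34 CPM in WT and 54.46 to 64.78 in KO, and the difference of -0.11 ± 0.08 was not called (adjusted p = 0.437). The averaged decrease was 0.23 ± 0.06 (adjusted p = 0.0197).

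Sesn3, the sestrin best known as a FoxO target, was the only one of the 10 genes called in SAT, and it was higher in KO. The WT SAT libraries held 8.01, 7.96, 5.27 and 8.68 CPM and the KO SAT libraries 10.1, 12.5, 12.6 and 12.6 CPM, with no overlap. Sesn3 rose by 0.67 ± 0.16 (adjusted p = 0.0216), a call that ended when KO SAT replicate 2, 3 or 4 was dropped (with adjusted p then 0.0575 to 0.0694) and was kept without both outlying libraries. In VAT the levels overlapped, at 7.19, 7.12, 6.69 and 6.80 CPM in WT and 7.42, 7.80, 5.62 and 4.62 CPM in KO, with a difference of -0.13 ± 0.16 (adjusted p = 0.769).

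Sesn2, the leucine-sensing sestrin and an ATF4 and p53 target, was not called for genotype by edgeR. The WT VAT libraries held 11.5, 11.3, 11.2 and 13.7 CPM and the KO VAT libraries 14.3, 15.9, 14.4 and 15.2 CPM, which did not overlap. The difference was 0.33 ± 0.11 (adjusted p = 0.0973), and DESeq2 called it (0.044). In SAT Sesn2 stood at 9.359 to 10.79 CPM in WT and 8.988 to 13.05 CPM in KO, a difference of 0.08 ± 0.11 (adjusted p = 0.701).

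Txnip had the largest averaged difference of the 10 genes. It stood at 1456, 1812, 1472 and 1100.2 CPM in WT SAT and at 1389, 989.97, 725 and 1134 CPM in KO SAT, with overlap between the groups. WT VAT had 1177, 1380.3, 1245 and 1018 CPM, above each KO VAT library at 986, 906, 581 and 820.1 CPM. Averaged over depots Txnip fell by 0.51 ± 0.14 (adjusted p = 0.0283). The call ended without WT SAT replicate 2, KO VAT replicate 3, KO SAT replicate 2 or 3, or WT VAT replicate 2 or 3 (adjusted p from 0.051 to 0.0601). The differences of -0.46 ± 0.19 in SAT (adjusted p = 0.166) and -0.55 ± 0.19 in VAT (adjusted p = 0.13) were not called. Gm15441, on the opposite strand, shares 606 exon bases with Txnip, and the kit does not mark strand; Gm15441 had 6 to 18 counts a library, at most 0.0375% of those of Txnip. Gm20402, antisense to Foxo1 with 674 shared exon bases, had 0 counts in each library. No source used here says how reads in shared bases were counted. Such reads may have been given to neither gene, so these counts do not show whether Txnip or Foxo1 lost reads there.

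Ccng2, a FoxO target, and the BTG genes were not called for genotype. Ccng2 stood at 75.51 to 82.21 CPM in WT SAT and 75.48 to 95.52 in KO SAT, while VAT ranged from 86.08 to 92.16 CPM for WT and from 64.32 to 85.35 CPM for KO. Only the VAT groups were free of overlap, with a difference of -0.21 ± 0.09 (adjusted p = 0.224). Btg1 was at -0.26 ± 0.10 in SAT (adjusted p = 0.142; 0.0484 without KO SAT replicate 1) and at -0.05 ± 0.10 in VAT (adjusted p = 0.86). Btg2 was at -0.03 ± 0.10 in SAT, with a 95% interval from -0.242 to 0.188, and at -0.12 ± 0.10 in VAT, with an interval from -0.331 to 0.1.

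Within single depots, 1 of the 10 genes was called higher in KO SAT, where 3.46% of all tested genes were, and edgeR called 0 lower, where 2.43% were. At an unadjusted p under 0.05, 5 were lower in KO SAT, and DESeq2 called 1 of them, Foxo3. In either direction 6 of the 10 genes had such a p in KO SAT, as did 3785 of all 16842 tested genes. In KO VAT, edgeR called 2 lower, where 1.26% of all tested genes were, and 0 higher, where 2.84% were; Sesn2 was higher at an unadjusted p under 0.05. The groups did not overlap for 3 of the 10 genes in SAT (14.7% of all tested genes) and for 6 of the 10 in VAT (13.7%). Of all calls in VAT, 69.3% were higher in KO, and 80.8% under scaling by total counts. The part of the higher adipocyte marker level in KO VAT in these results was not tested.

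**Figure D2:**
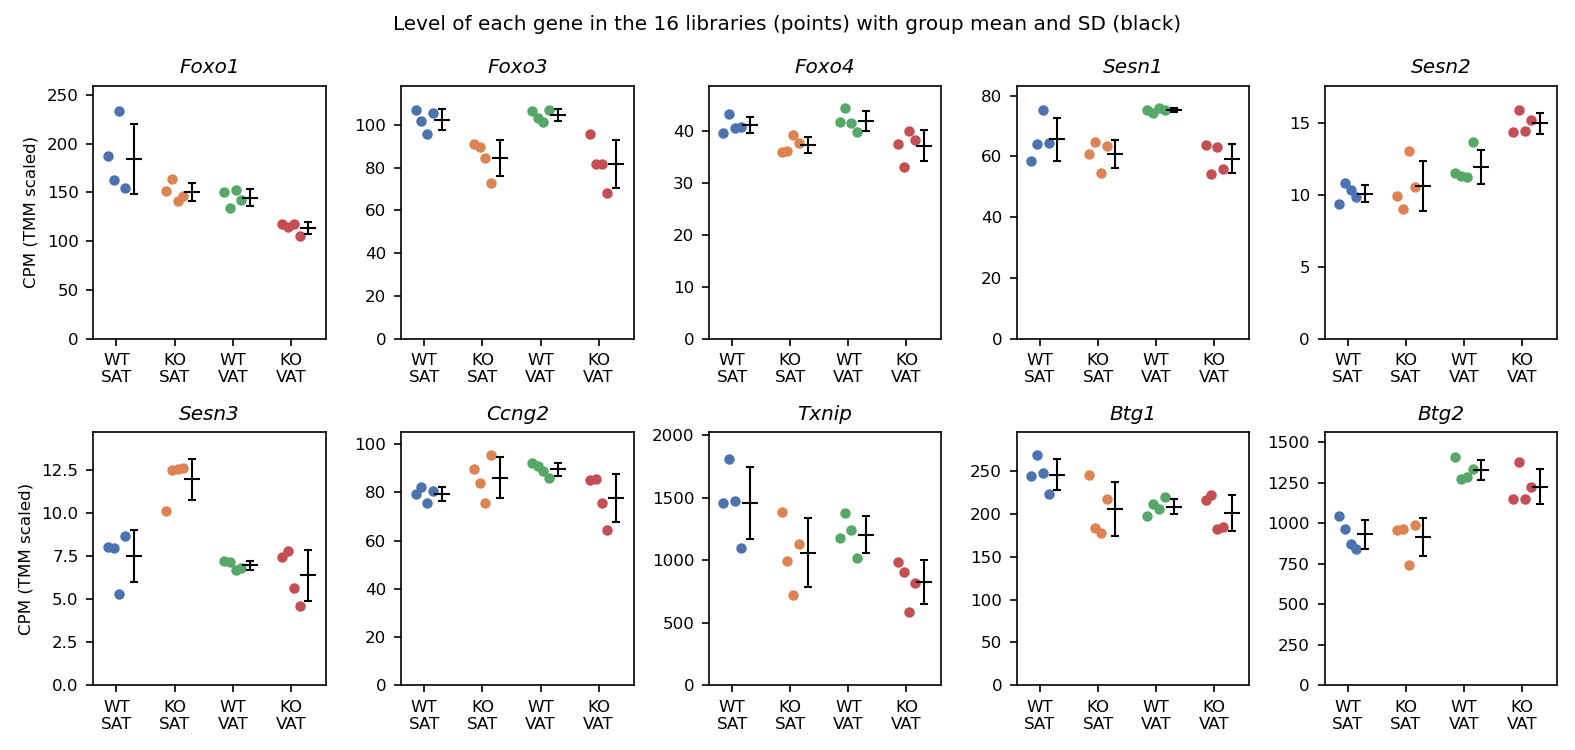
CPM of each of the 10 genes in the 16 libraries (coloured points, by group), with group mean and SD over 4 libraries in black. The Foxo3 points of KO lie below those of WT in both depots, and the Sesn3 points of KO SAT, from 10.13 to 12.59 CPM, lie above all others of that gene.

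**Figure D3:**
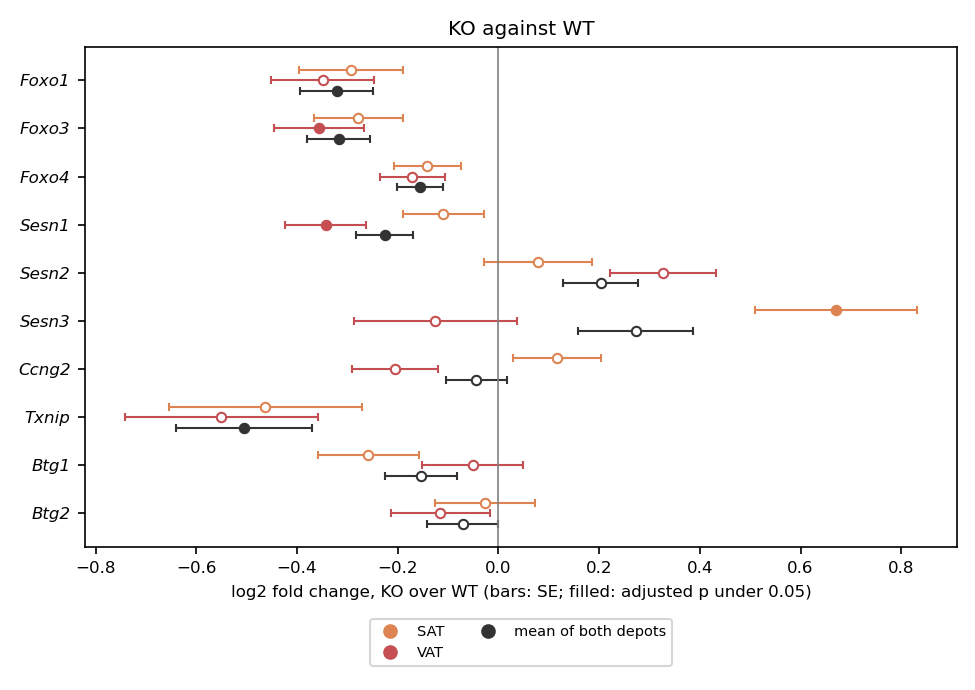
Log2 fold change of KO over WT in SAT, in VAT and averaged over the depots for each gene, with bars of 1 SE; filled points were called at adjusted p under 0.05. The 5 filled averages (Foxo1, Foxo3, Foxo4, Sesn1 and Txnip) lie below 0.

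**Figure D4:**
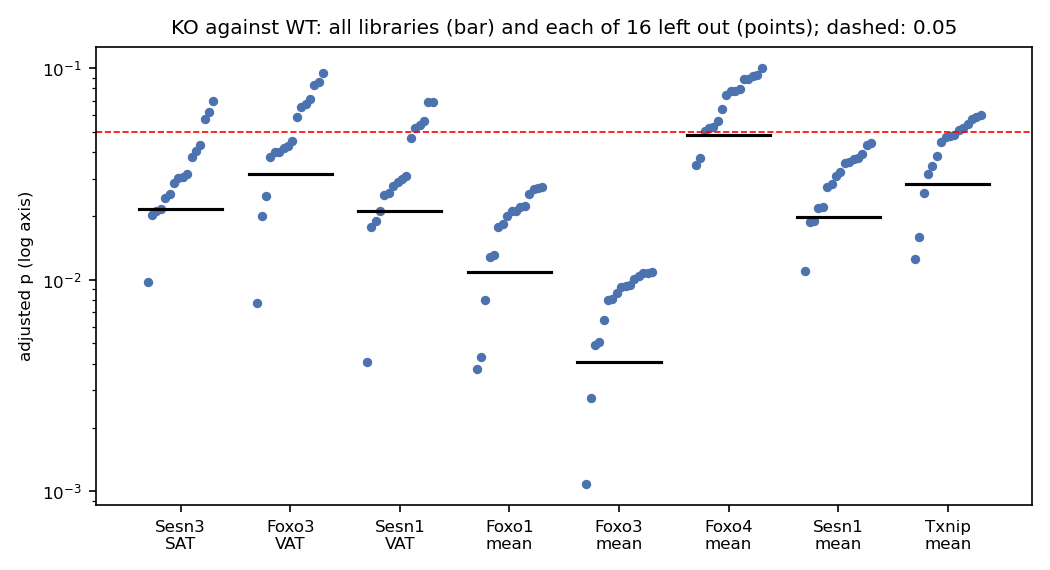
Adjusted p (log axis) of the 8 KO calls with all libraries (bars) and with each of the 16 libraries left out (points); the dashed line is 0.05. The points of the averaged Foxo1, Foxo3 and Sesn1 calls lie below the line, and those of the other 5 calls lie on both sides of it.

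Genes that act beside these 10 were counted by list in the averaged KO comparison. Of all tested genes, 4.65% were called higher and 3.41% lower there. Among 18 genes of FoxO upstream signalling, from the insulin and IGF receptors to PI3K and AKT, 0 were called higher and 1 lower by edgeR, with a list median of -0.04. The gene was Sgk1, a kinase that phosphorylates FoxO proteins, which fell by 0.56 ± 0.11 (adjusted p = 0.00451). Sgk1 is also on the list of glucocorticoid-responsive genes given below. At an unadjusted p under 0.05, 1 gene of the FoxO upstream list was higher, and DESeq2 called it. Among 24 FoxO target genes, 1 was called higher and 3 lower, with a median of -0.042. Gabarapl1, an autophagy gene, fell by 0.34 ± 0.06 (adjusted p = 0.0013) and Bnip3, a mitophagy receptor, by 0.30 ± 0.07 (adjusted p = 0.0169). In SAT the Bnip3 level was 18.91 ± 2.7 CPM in WT and 13.5 ± 1.64 in KO, and in VAT 23.66 ± 0.712 and 21.91 ± 1.72 (SD, n = 4). S1pr1, a sphingosine 1-phosphate receptor, rose by 0.85 ± 0.19 on average (adjusted p = 0.0111). Its level was 0.674 ± 0.261 CPM in WT and 2.144 ± 0.266 in KO in SAT (1.70 ± 0.29, adjusted p = 0.00211), but 3.117 ± 0.984 and 3.136 ± 0.658 CPM in VAT.

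Among 24 sestrin partners in the GATOR, Rag, mTORC1 and AMPK machinery, edgeR called 0 higher and 1 lower; 1 was higher at an unadjusted p under 0.05, and DESeq2 called 0 higher. The lower gene was Gatsl2 (Castor2), a homologue of the arginine sensor, which fell by 0.19 ± 0.05 (adjusted p = 0.0221; 0.0512 under scaling by total counts). Among 12 KEAP1-NRF2 genes, 0 were called higher, by DESeq2 also 0 and at an unadjusted p under 0.05 by edgeR 1, and Sqstm1, the autophagy receptor p62 that binds both sestrins and KEAP1, fell by 0.22 ± 0.05 (adjusted p = 0.0139). Of 20 p53 targets edgeR called 0 higher and 1 lower, with 1 higher at an unadjusted p under 0.05 and 0 by DESeq2. The lower gene was Ddit4, an inhibitor of mTORC1 that is also an ATF4 and glucocorticoid target, at -0.95 ± 0.17 (adjusted p = 0.00179).

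The ATF4 list, which shares Ddit4, had 0 of 16 called higher and 5 lower by edgeR, 1 higher at an unadjusted p under 0.05 and 0 by DESeq2. Trib3, a pseudokinase that binds AKT, fell by 0.68 ± 0.13 (adjusted p = 0.00332). In the thioredoxin, alpha-arrestin and MondoA list, 1 of 14 was called higher and 2 lower. Mlxipl, which encodes the glucose-responsive factor ChREBP, rose by 0.60 ± 0.14 on average (adjusted p = 0.013). In VAT its level was 2.172 ± 0.229 CPM in WT and 5.096 ± 1.22 in KO (1.23 ± 0.20, adjusted p = 0.00126), but in SAT 4.117 ± 0.687 and 4.005 ± 0.947. Txn1, the thioredoxin that TXNIP binds, fell by 0.30 ± 0.08 (adjusted p = 0.0231; 0.0538 at most with 1 library left out, the call ending without KO SAT replicate 3 or WT VAT replicate 4). Without KO SAT replicate 3, 0 of this list were called lower. In the BTG, TOB and CCR4-NOT list of 16, edgeR called 0 in either direction; 1 was higher and 2 were lower at an unadjusted p under 0.05, and DESeq2 called 1 each way.

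Other lists moved more widely. Each of the 20 genes of mitosis and G2/M passed as higher in KO, with a median of 1.475, and Mki67, a marker of cycling cells, stood at 7.236 ± 1.38 CPM in WT SAT and 24.81 ± 4.06 in KO SAT, and at 9.483 ± 1.42 in WT VAT and 33.41 ± 5.07 in KO VAT (SD, n = 4). Of 12 glucocorticoid-responsive genes, 7 were called lower, with a median of -0.482, among them Tsc22d3 at -1.12 ± 0.13 (adjusted p = 3.01e-05) and Klf15 at -0.72 ± 0.07 (adjusted p = 1.62e-06). EdgeR called 0 of that list higher, with 1 at an unadjusted p under 0.05 and 1 by DESeq2. Of 18 immediate early and dissociation-linked genes, 1 was called higher and 8 lower, among them Hspa1b at -0.60 ± 0.06 (adjusted p = 4.93e-06). The part of these shifts in the values of the FoxO genes, Sesn1 and Txnip was not tested.

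Whether KO effects differed between the depots was tested as an interaction, the effect in VAT minus that in SAT. By edgeR 0 of the 10 genes were called, where 0.267% of all tested genes (45) were, and 2 had an unadjusted p under 0.05, as did 2693 of all 16842 tested genes. Sesn3 had the largest difference, -0.80 ± 0.23 (adjusted p = 0.122; adjusted p over the 16 fits with 1 library left out from 0.109 to 0.225), and DESeq2 called it (0.0341). Ccng2 was at -0.32 ± 0.12 (adjusted p = 0.225). For Sesn1, called in VAT and not in SAT, the difference was -0.23 ± 0.11 with a 95% interval from -0.481 to 0.012 (adjusted p = 0.319), so the depots were not shown to differ.

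The second question was how the depots differ. In WT, Foxo1 was lower and Btg2 higher in VAT than in SAT: 1 of the 10 genes was called lower, where 17.6% of all tested genes were, and 1 higher, where 19.1% were. In KO, Foxo1 and Sesn3 were called lower (20% of all tested genes) and Sesn2 and Btg2 higher (23.3%). The groups did not overlap for 5 of 10 genes in WT (34.1% of all tested genes) and 4 of 10 in KO (45.6%).

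Btg2, an immediate early and p53-inducible gene, held 1043, 968, 874 and 840.2 CPM in WT SAT and 1412, 1274.5, 1288 and 1336 CPM in WT VAT. In KO it held 962, 967, 741 and 987 CPM in SAT and 1149.6, 1380.4, 1149.8 and 1223 CPM in VAT. Each VAT library was above each SAT library of its genotype. Btg2 rose by 0.51 ± 0.10 in WT VAT (adjusted p = 0.00055), and the KO increase was 0.42 ± 0.10 (adjusted p = 0.00217). Btg1, its closest relative among the 10 genes, was at -0.24 ± 0.10 in WT VAT, from 246.4 ± 18.5 to 208.8 ± 9.10 CPM, and not called (adjusted p = 0.0736; 0.0421 in the fit of the 2 WT groups alone), and at -0.03 ± 0.10 in KO (adjusted p = 0.824). In the BTG, TOB and CCR4-NOT list, 2 of 16 genes were called higher in WT VAT and 0 lower by edgeR (2 lower at an unadjusted p under 0.05), against the 19.1% and 17.6% of all tested genes given above. The higher genes were Tob2 at 0.53 ± 0.11 (adjusted p = 0.000899) and Tob1 at 0.41 ± 0.09 (adjusted p = 0.00196).

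Foxo1 fell by 0.35 ± 0.10 in WT VAT (adjusted p = 0.0128), and the KO decrease was 0.41 ± 0.10 (adjusted p = 0.00394). In the fit of the 2 WT groups alone the adjusted p was 0.0576. Sesn2 rose by 0.50 ± 0.11 in KO VAT (adjusted p = 0.00104), and was at 0.25 ± 0.11 in WT (adjusted p = 0.0828). Sesn3 fell by 0.91 ± 0.16 in KO VAT (adjusted p = 0.000207), and was at -0.11 ± 0.16 in WT (adjusted p = 0.633). These are the values whose difference the interaction tested. Sesn1 was at 0.20 ± 0.08 in WT VAT and not called (adjusted p = 0.0628), but without WT SAT replicate 3 it was at 0.27 and called (adjusted p = 0.00619).

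The depot values depend on how libraries are scaled. Scaling by total counts moved the median log2 fold change of all tested genes from -0.004 to 0.295 in WT and from 0.017 to 0.363 in KO. The share of calls that were higher in VAT went from 52% to 85.6% in WT and from 53.8% to 86.6% in KO. Under that scaling Foxo1 was at -0.046 (adjusted p = 0.697) in WT and -0.062 (adjusted p = 0.573) in KO. Its calls as lower in VAT thus depended on the scaling. Btg2 stayed called higher in both genotypes, Sesn2 higher and Sesn3 lower in KO, and 6 of the 10 genes in WT and 8 in KO were called. Of all 16842 tested genes, this scaling called 7845 higher and 1323 lower in WT VAT, and 9121 higher and 1408 lower in KO VAT. In KO, 5 genes that were below 0 and not called under TMM turned and were called higher in VAT: Foxo3 (0.29), Foxo4 (0.35), Sesn1 (0.31), Ccng2 (0.20) and Btg1 (0.31). In WT the 5 genes newly called, all higher in VAT, were Foxo3 (0.33), Foxo4 (0.33), Sesn1 (0.50), Sesn2 (0.54) and Ccng2 (0.47). The WT values of Sesn3, Txnip and Btg1 turned from below to above 0 without being called. Cell type markers also differed between the depots. Under TMM scaling, 19.1% of all tested genes were called higher and 17.6% lower in WT VAT, and 23.3% and 20% in KO VAT. Of 9 progenitor markers, 2 were called higher and 5 lower in WT VAT, and 1 higher and 6 lower in KO VAT. In WT VAT, 8 of 8 mesothelial, 7 of 9 smooth muscle and 5 of 10 myeloid markers were called higher and 6 of 6 Schwann cell markers lower. In KO VAT, 8 of 8 adipocyte markers were called higher than in KO SAT. The part of these markers in the depot values was not tested.

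**Figure D5:**
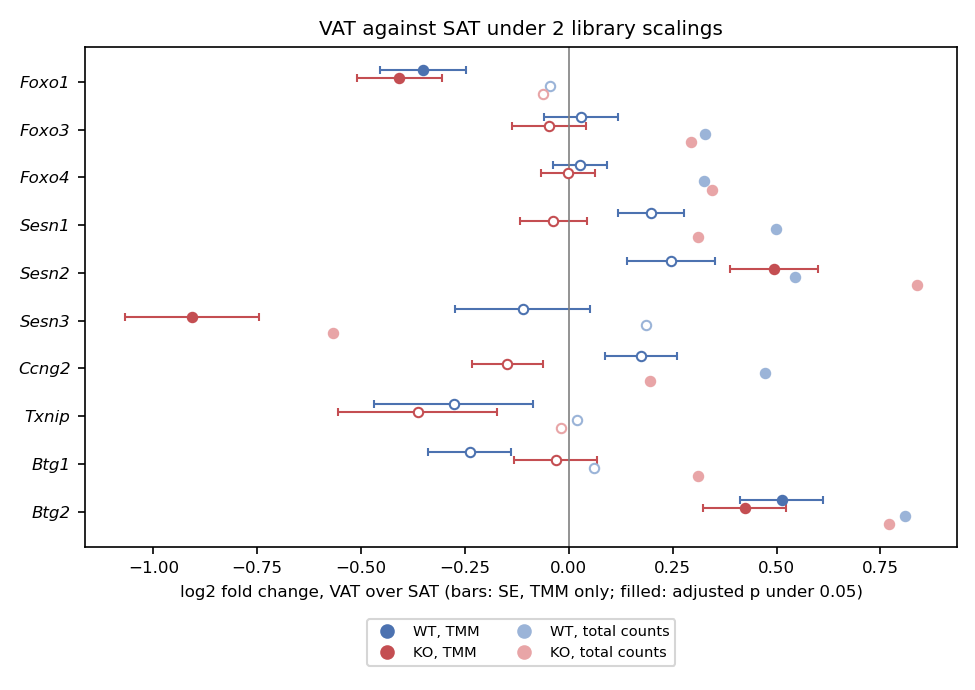
Log2 fold change of VAT over SAT in WT and KO for each gene under TMM scaling (dark, bars of 1 SE) and total-count scaling (pale, no bars); filled points were called at adjusted p under 0.05. Total-count values lie to the right of TMM values for all 10 genes, and Btg2 is filled and above 0 in each of the 4 sets.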

How the data were processed

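RNA of 16 libraries was sequenced as single reads after NEBNext Ultra library preparation, per the labels' protocols. The authors deposited whole-number counts per gene symbol, which were the input of each test. They also deposited a table of normalized values, a signal equal to the counts divided by 1 factor per library (largest relative deviation 4.94e-10 above 50 counts), which was not tested. Per the submitters' processing notes, STAR, featureCounts, FastQC and DESeq were used with build mm10; no source used here gives their versions, the annotation or the strand setting.

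Counts were fitted in R 4.3.3 with edgeR 4.0.16: filterByExpr, TMM scaling, 1 coefficient per group over all 16 libraries (12 residual degrees of freedom, biological coefficient of variation 0.156), quasi-likelihood tests, Benjamini-Hochberg adjustment over 16842 genes and calls at 0.05. The standard error is the absolute log2 fold change over the square root of F. Exon lengths came from GENCODE vM21, whose symbols matched 35628 of 38720 lines. Alternatives used DESeq2 1.42.0 and limma 3.58.1 (voom), other scalings, no filter, 2 groups only, the replicate block, each library left out, and both outlying libraries left out, the last chosen after seeing the data. The edgeR step was tested on simulated counts.

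The 10 genes, the pathway and marker lists and the tests were chosen with earlier results of these data known. Named pathway genes are up to 3 per list and comparison with the smallest p among those called. A rule to name genes of most similar pattern asked for group means at least 1 apart on the log2 scale, which 0 of the 10 genes reached. Same-numbered libraries deviated together (r over 0.1) in 10 of 24 pairs, with r from -0.433 to 0.39. They did so in 0 of 6 group pairs throughout, so numbers were not taken to pair libraries. Between SAT and VAT, r for replicates 1 to 4 was 0.361, 0.225, 0.39 and -0.173 in WT. In KO it was 0.159, -0.176, 0.033 and 0.105. Whether SAT and VAT libraries share mice is not known. The replicate block joins equal numbers of both genotypes, so it does not model such sharing. Within groups, no libraries were alike to within counting noise: the lowest chi-square per degree of freedom over 24 pairs was 15.1. Pairs between groups were not checked, and the value does not show whether libraries share an animal or RNA. Figures were drawn with matplotlib 3.10.9.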

Additional observations from a re-analysis of the deposited data

Results flagged for a closer look

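Of 40 groups of 4 values (10 genes in 4 groups), 3 held a library far from the other 3 by the 95% critical value of Dixon's gap test; chance alone gives about 1 in 20. Sesn2 stood at 13.67 CPM in WT VAT replicate 4, against 11.2 to 11.53 in the other libraries of that group. Sesn3 stood at 10.13 CPM in KO SAT replicate 1, against 12.51 to 12.59 in the others. Btg2 stood at 741 CPM in KO SAT replicate 3, against 961.56 to 986.83 in the others.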

How the results depend on the processing

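Of the values of the 10 genes recomputed under the alternatives, 1320 kept their direction and side of the threshold. Among the rest, 42 lost a call, 29 gained one, and 29 were uncalled values that changed sign and stayed uncalled. With DESeq2, 2 of the 10 genes were called in KO SAT and 4 in KO VAT, and of all tested genes 1701 and 1232; the interaction then had 1 of the 10 and 528 genes. Only the 2 SAT groups gave 509 calls for genotype. Without both outlying libraries 2 of the 10 were called in KO SAT. Scaling by total counts gave 6 of the 10 for depot in WT, 8 in KO, and 29 genes for the interaction. Of all tested genes it called 7845 higher and 1323 lower in VAT for WT, and 9121 higher and 1408 lower for KO. The replicate block gave 14 genes for the interaction; its only change to a call of the 10 genes was the averaged Foxo4 value (adjusted p = 0.0784). Under total counts 4 depot values that had been called reversed: Wdr24 in WT (0.014), and Arrdc4 (0.052), Cnot2 (0.022) and Nr3c1 (0.092) in KO; among the 10 genes, 5 uncalled KO depot values below 0 turned and were called higher (Foxo3, Foxo4, Sesn1, Ccng2 and Btg1, 0.195 to 0.345); the cause was not tested beyond the shift of the median that this scaling brings. With 1 library left out, the calls among the 10 genes and among all genes ranged from 0 to 2 and 469 to 1158 in KO SAT, from 0 to 3 and 412 to 1216 in KO VAT, from 2 to 3 and 5395 to 6394 for depot in WT, from 4 to 5 and 6593 to 8592 for depot in KO, from 0 to 0 and 7 to 149 for the interaction, and from 3 to 5 and 1002 to 1669 for the averaged KO effect. The lowest counts over all genes came without KO SAT replicate 4 in KO SAT (469), depot in KO, the interaction and the average, without KO VAT replicate 4 in KO VAT and without WT VAT replicate 1 for depot in WT. Calls gained in this way were Foxo1 in KO SAT without WT SAT replicate 4 (adjusted p = 0.0424) and in KO VAT without WT SAT replicate 3 (0.00587) or 4 (0.0486). In KO SAT, Foxo3 was gained without KO VAT replicate 4 (0.0366) and Btg1 without KO SAT replicate 1 (0.0484). For depot in WT, they were Sesn1 without WT SAT replicate 3 (0.00619), Sesn2 without KO SAT replicate 3 (0.0422) and Btg1 without KO SAT replicate 1 (0.0454). For depot in KO, Txnip was gained without KO SAT replicate 3 (0.0362).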

Other observations

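Sesn1 and Foxo3 are neighbours on chromosome 10, with 273 kb between the facing ends of the genes, a position noticed after their values were seen. Of the 13 other tested genes within 500 kb, edgeR called 0 in the averaged KO comparison, and 0 had an unadjusted p under 0.05. Armc2, which lies between them, was at 0.15 ± 0.14 (adjusted p = 0.601), Snx3 at -0.03 ± 0.04 (adjusted p = 0.772) and Cd164 at 0.06 ± 0.07 (adjusted p = 0.652). Within single depots, edgeR also called none of the 13: Cd164 was at 0.30 ± 0.10 in SAT (adjusted p = 0.0733) and -0.18 ± 0.10 in VAT (adjusted p = 0.354), and in VAT Zbtb24 was at -0.23 ± 0.09 (adjusted p = 0.158) and Sec63 at -0.16 ± 0.07 (adjusted p = 0.245). Nr4a1 is on chromosome 15.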
